A study of Mus musculus with 3 samples.

Results

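The BCL2 family decides whether the mitochondrial outer membrane stays closed or is opened in apoptosis. Its members share short BCL2 homology (BH) stretches. The prosurvival proteins bind and hold back the effectors Bax and Bak1, which form pores that release cytochrome c, and the BH3-only proteins free or activate the effectors. In fibroblasts, p53, FOXO factors and growth factor withdrawal are well known inputs to the BH3-only genes.

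The members were 10 genes chosen by name: the prosurvival genes Bcl2, Bcl2l1 and Mcl1, the effectors Bax and Bak1, and the BH3-only genes Bcl2l11, Bbc3, Pmaip1, Bid and Bad. All probes with one of these names, or with an accession whose current RefSeq symbol is one of them, were taken, which gave 14 of 55681 gene probes and 10 of 35696 gene names. Of the 10 genes, 4 had 2 probes each and 6 had 1. All 14 probes were well above background on all 3 arrays, so no member was lost to a filter.

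The arrays held total RNA of mouse embryonic fibroblasts (MEF) of strain C57BL/6, made from mid-gestation embryos without heads, legs and internal organs. MEF cells were kept in DMEM with fetal bovine serum, either without BP (control), with 10 µg/ml BP (BP10) or with 40 µg/ml BP (BP40). BP is n-butylidenephthalide, a phthalide of the medicinal root Angelica sinensis. The control is labelled as having no treatment and is described in the study as given DMSO, and the time in BP before the RNA was taken is not given in the sources used here. There was 1 Agilent whole mouse genome array per condition, so no difference below has a replicate check, and none has a p-value.

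Of the gene spots, the scanner called 81.7% well above background without BP, 68.3% at BP10 and 69.1% at BP40. The 3 arrays lay on 1 slide, but the control array was scanned in another session than the BP arrays. Against the control, BP treatment and scan session therefore cannot be told apart, while both BP arrays came from 1 session. All 15 fibroblast markers were well above background on every array, with a summed level, as a multiple of the array's 75th percentile, of 1611 on the control, 1200 on BP10 and 1279 on BP40. Against the control, 0 of the 15 were higher at BP10 and 3 at BP40. Their median log2 ratio was -0.47 at each dose, beside -0.23 (BP10) and -0.11 (BP40) over all genes. Of 10 endothelial markers 7 were above background on every array, and Cdh5, Tie1 and Esam on none, with a summed level of 12.2 without BP, 9.72 at BP10 and 12.98 at BP40. Of 10 epithelial markers 8, 6 and 7 were above background in the same order, and Epcam and Cdh1 on no array, with sums of 4.17, 3.57 and 2.66. Of 12 skeletal muscle markers 11, 8 and 8 were above background, with sums of 16.8, 16.4 and 18.1. All 15 macrophage markers were above background, at a summed level of 40.6 on the control, 34.8 on BP10 and 38.1 on BP40. Though the sum was lower on both BP arrays, 8 of the 15 were higher at BP10 than on the control and 7 at BP40. Their median log2 ratios were 0.05 and -0.04. The sums add linear levels, so the brightest probe weighs most in each. For macrophages it was Itgam, at a log2 level of 4.52 on the control, while other Itgam probes read -1.85 and -2.26. For endothelium it was Kdr, at 3.01 with another probe at -2.62, and for muscle Acta1, at 3.89. The part of other cell types in the member values was not tested, and in bulk RNA fewer cells of a type and less RNA per cell cannot be told apart.

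What an array reads of a family member is the stretch its probe binds, and the largest ratios came from probes at different places in the transcripts. Their sequences are shown for that reason, 5′ to 3′, with positions in mouse build mm9 as the files give them. The Bcl2 probe (chr1:108608970-108609029, minus strand) reads the coding part of the BH1 stretch, and its capitals mark the codons of a conserved glycine pair. The brighter Bcl2l11 probe (chr2:127972893-127983988, plus strand) has capitals at the glycine and aspartate codons in the core of BH3, the helix that docks into the groove of the prosurvival proteins. Its listed interval is far longer than the 60-base probe, as is that of the dimmer Bcl2l11 probe (chr2:127954736-127955417, plus strand), of which the first 30 bases are given. The dimmer Bcl2l1 probe (chr2:152655185-152655244, minus strand) had 1 open reading frame. In the brighter Bcl2l1 probe (chr2:152606404-152606463, minus strand) and the brighter Bad probe (chr19:7026323-7026382, plus strand), 30 bases are shown around AATAAA, the letters of the poly(A) signal, in capitals.
Bcl2: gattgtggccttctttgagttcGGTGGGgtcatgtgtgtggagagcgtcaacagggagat
Bcl2l11 brighter probe: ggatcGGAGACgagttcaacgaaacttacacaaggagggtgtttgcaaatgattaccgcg
Bcl2l11 dimmer probe, first bases: atctcagtgcaatggatcagttggagaatc
Bcl2l1 dimmer probe: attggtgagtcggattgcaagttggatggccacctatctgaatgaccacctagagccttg
Bcl2l1 brighter probe, inner bases: gtgcagttcagtAATAAAtggtgtctgtga
Bad brighter probe, inner bases: aacgtgctttatAATAAAgcctgcgcatgt

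AATAAA was searched in the probes as listed, on the transcript's strand only. It stood in 2 member probes, and in 10.1% of all gene probes. In the top one of the 20 brightness classes used below the share was 21.6%. The 2 member probes, the brighter ones of Bcl2l1 and Bad, lay in classes 20 and 19. The listed places of the other probes were chr3:95466855-95466914 (brighter Mcl1, plus strand), chr3:95465543-95465602 (dimmer Mcl1, plus strand), chr7:52717122-52717181 (Bax, minus strand), chr17:27156807-27156866 (Bak1, minus strand), chr7:16903403-16903462 (Bbc3, plus strand), chr6:120843464-120843523 (Bid, minus strand) and chr19:7016918-7017403 (dimmer Bad, plus strand, an interval also longer than the probe).

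Levels are given as log2 of the processed signal minus the array's 75th percentile over gene spots, and a ratio is the difference of 2 such levels. A probe was called changed at 2-fold or more, provided that either of the arrays compared read it well above background. Against the control, BP10-treated MEF cells had 1 of 14 member probes called, the dimmer Bcl2l1 probe, which was higher. Over all gene probes 24.3% were called in that comparison, 3.63% as higher and 20.7% as lower. BP40-treated MEF cells had 1 of 14 called against the control, the dimmer Bcl2l11 probe, also higher, where 21.5% of all probes were called, 3.32% as higher and 18.2% as lower. Between BP40 and BP10, 0 of 14 were called, against 8.29% of all probes, 4.31% as higher and 3.99% as lower. In each of the 3 comparisons 12 of 14 member probes stayed within 1.5-fold. The share of all gene probes within 1.5-fold was not computed, so this count is not read as a trait of the family.

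Most calls over all probes came from dim probes. Gene probes were therefore also split by mean level into 20 classes of like brightness, and 13 of the 14 member probes lay in classes 13 to 20. In those classes 6.06% of probes were called for BP10 against control, 4.76% when BP40 was set against the control and 2.45% between the doses. The 13 members there had 1, 0 and 0 calls. The median log2 ratio of the 14 probes was 0.03 for BP10 against control, where all probes had -0.23. It was 0.24 for BP40 against control beside -0.14, and 0.15 for BP40 against BP10 beside 0.04. Within classes 13 to 20 the gaps were smaller. The 13 member probes there had medians of 0.03, 0.22 and 0.12 in the same order, and all probes there -0.09, 0.02 and 0.09. With each array's median in place of its 75th percentile, all ratios moved up by 0.33 (BP10) and 0.35 (BP40) against the control, so that 13 of 14 member ratios were above 0 in each instead of 8. On that scale 9 (BP10) and 7 (BP40) of the 14 stayed within 1.5-fold of the control, instead of 12 in each.

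3 measures of error were at hand. Spots of 1 probe on 1 array had a median SD of 0.13 on the control and 0.07 on each BP array, on the log2 scale. The scanner's error model put the error of a member log2 ratio at 0.20 to 0.21, except for the dimmer Bcl2l11 probe. The log2 ratios of 2 probes of 1 gene had a median SD of 0.26 at BP10 and 0.19 at BP40, both against the control, and 0.19 between the doses, over 3507 genes. None of these holds the spread between cultures.

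**Figure D1:**
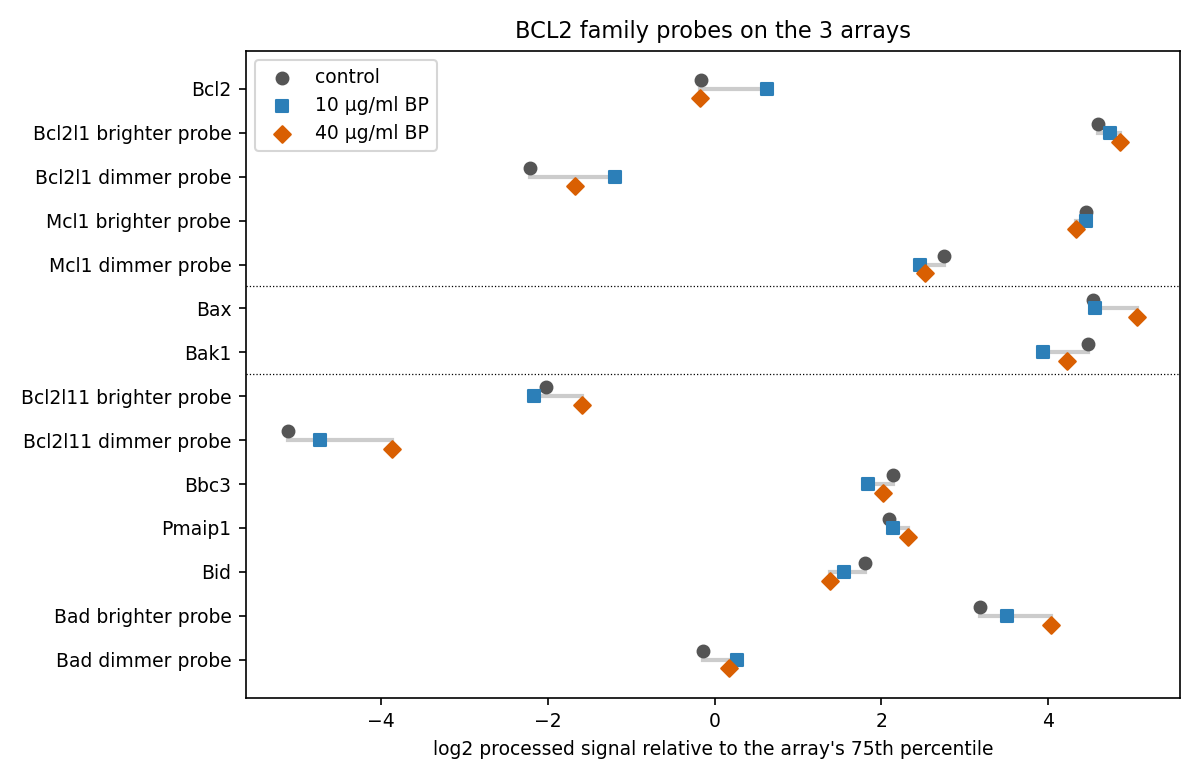
Log2 level of each of the 14 BCL2 family probes, as processed signal relative to the array's 75th percentile, on the control (circles), 10 µg/ml BP (squares) and 40 µg/ml BP (diamonds) arrays. Symbols are set apart vertically for legibility, grey lines join the lowest and highest array of a probe, and dotted lines part prosurvival genes, effectors and BH3-only genes. On this scale the control was highest for 5 probes, BP10 for 3 and BP40 for 6. The order depends on the scale, and the shares over all probes were not computed. With each array's median, 13 of 14 ratios against the control were above 0 at each dose.

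Among the prosurvival genes, Bcl2, which guards mitochondria and the endoplasmic reticulum, had log2 levels of -0.17 on the control, 0.63 on BP10 and -0.18 on BP40. On this scale BP10 stood alone, and control and BP40 lay together. The Bcl2 log2 ratio was 0.80 ± 0.20 (scanner error) for BP10 against control, a 1.74-fold higher level, and -0.81 ± 0.20 for BP40 against BP10. The first lay above the central 90% of probes of its brightness, which ran from -0.82 to 0.71, and the second lay below it (-0.65 to 0.67). By construction 5% of the probes of a class lie above such a range and 5% below it. The fold of BP10 against control stayed under 2 with the 75th percentile and passed it with each array's median, at a log2 ratio of 1.13. The ratio of BP40 against control, -0.0079, became 0.34 with each array's median and 0.02 with quantile normalization.

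Bcl2l1 encodes BCL-XL and, by splicing, the shorter pro-apoptotic BCL-XS. Its brighter probe, at the poly(A) signal letters, read 4.60 on the control, 4.75 on BP10 and 4.86 on BP40, and all of its ratios were within 0.26. The dimmer probe in the open frame read -2.22 on the control, -1.19 on BP10 and -1.67 on BP40. For BP10 against control its log2 ratio was 1.02 ± 0.21, which is 2.03-fold, with the central 90% of its class at -1.20 to 0.89. With normexp, a model-based background correction of the raw signals, it was 0.85 and the probe was not called. For BP40 against control the ratio was 0.55 ± 0.21. Both Bcl2l1 probes were higher with BP at both doses, but the dimmer probe exceeded the brighter one by 0.88 in the BP10 ratio. That gap gives an SD between the probes of 0.62, against the median of 0.26 over genes with 2 probes, and the call rests on the dimmer probe alone.

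Mcl1, a short-lived prosurvival protein, differed little between the arrays. Its brighter probe read 4.45 on the control, 4.45 on BP10 and 4.34 on BP40. The dimmer probe read 2.75 on the control, 2.47 on BP10 and 2.53 on BP40. All ratios of both probes against the control were at or below 0, from -0.28 to -0.0014, and with each array's median as the scale all 4 were above 0, the one of -0.0014 also with quantile normalization, normexp or the class median removed. No Mcl1 ratio left the central 90% of its class.

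Of the pore-forming effectors, Bax had levels of 4.54 on the control, 4.57 on BP10 and 5.07 on BP40. Only the BP40 array stood apart. The log2 ratio was 0.53 ± 0.20 for BP40 against control and 0.50 ± 0.20 for BP40 against BP10, 1.44-fold and 1.42-fold, both inside the central 90% of the class, whose upper ends were 0.58 and 0.70. Subtracting the median ratio of the class left 0.25 for BP40 against BP10.

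Bak1, the effector that resides in the outer membrane, read 4.48 on the control, 3.94 on BP10 and 4.23 on BP40. It was highest on the control and lowest on BP10. Its log2 ratio for BP10 against control was -0.55 ± 0.20, just inside the class limit of -0.57. For BP40 against control it was -0.25 ± 0.20, and this one was above 0 with each array's median as the scale. On the 75th percentile scale Bax and Bak1 thus had ratios of unlike sign against the control, while both were higher on BP40 than on BP10.

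**Figure D2:**
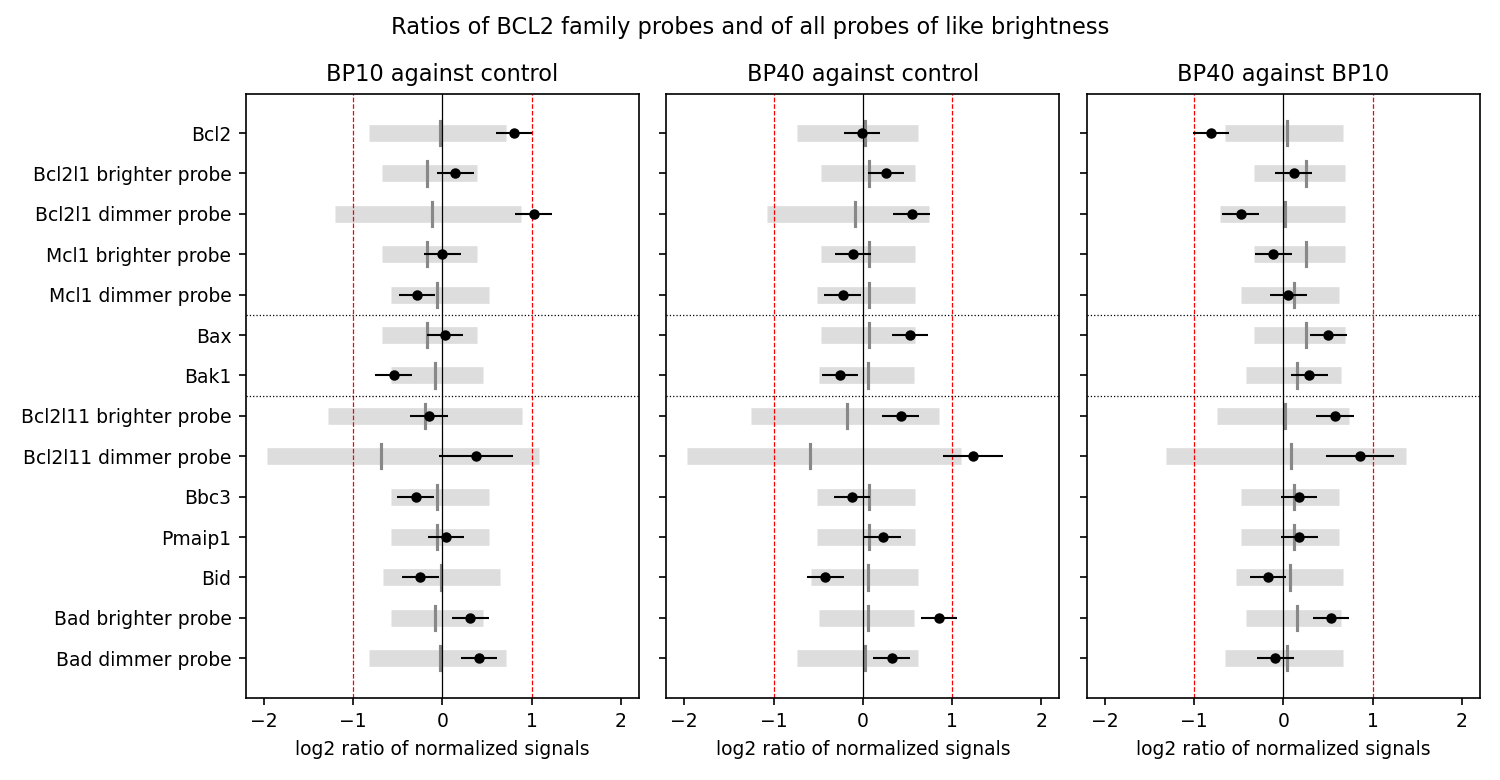
Log2 ratio of each BCL2 family probe (black points, bars are the scanner's error) in the 3 comparisons. Grey bars span the central 90% of all gene probes of like brightness, the tick in each is their median, and dashed red lines mark 2-fold. Bcl2 and the dimmer Bcl2l1 probe lay above their grey bar for BP10, the dimmer Bcl2l11 and the brighter Bad probe lay above theirs for BP40, and Bcl2 lay below its bar for BP40 against BP10. By construction 5% of each class lie above its bar and 5% below it, so these places are not read as a trait of the family.

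Among the BH3-only genes, Bcl2l11 encodes BIM, which binds all prosurvival members. The brighter probe, over the BH3 codons, had log2 levels of -2.02 on the control, -2.17 on BP10 and -1.59 on BP40. Its log2 ratio was 0.43 ± 0.21 for BP40 against control and 0.58 ± 0.21 for BP40 against BP10, both inside the central 90% of their class. The BP10 ratio of -0.15 against control was above 0 with each array's median, with quantile normalization and after removal of the class median.

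The dimmer Bcl2l11 probe read -5.11 on the control, -4.74 on BP10 and -3.88 on BP40. These were signals of 50.4, 52.6 and 82.7 units, dim but flagged as well above background. The log2 ratio of BP40 against control was 1.24 ± 0.33, which is 2.36-fold, above the class limit of 1.10. It was 0.86 ± 0.38 for BP40 against BP10. With normexp the BP40 ratio against control was 0.82 and the probe was not called. The offset of 50 that normexp adds is near these signals and by itself shrinks ratios of dim probes. The BP10 ratio against control, 0.38 ± 0.41, passed 2-fold at 1.06 with quantile normalization or the class median removed. Both Bcl2l11 probes were highest on BP40, with a gap of 0.81 between their ratios against control.

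Bad, a BH3-only protein kept in check by phosphorylation, had 2 probes that ordered the BP arrays differently. The brighter probe, at the poly(A) signal letters, read 3.19 on the control, 3.50 on BP10 and 4.04 on BP40. Its log2 ratio for BP40 against control was 0.85 ± 0.20, a 1.80-fold higher level and above the class limit of 0.58. With each array's median as the scale it was 1.20, past 2-fold.

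The dimmer Bad probe read -0.14 on the control, 0.27 on BP10 and 0.18 on BP40. Its ratio for BP40 against control, 0.32 ± 0.20, was inside its class. Both Bad probes were lowest on the control, and the difference between the doses, 0.54 on the brighter probe, was -0.09 on the dimmer.

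Bbc3 and Pmaip1, the p53 targets that encode PUMA and NOXA, moved little. Bbc3 read 2.14 on the control, 1.85 on BP10 and 2.02 on BP40. Pmaip1 read 2.10 on the control, 2.14 on BP10 and 2.32 on BP40. Their ratios ran from -0.30 to 0.22, inside the central 90% of their class. Those of Bbc3 against the control were above 0 with each array's median as the scale, and that of Pmaip1 for BP10 was below 0 with normexp.

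Bid, which caspase-8 cleaves to carry death receptor signals to mitochondria, read 1.80 on the control, 1.55 on BP10 and 1.38 on BP40. The level was lower at each step of dose, with a log2 ratio of -0.42 ± 0.20 for BP40 against control, inside the class limit of -0.58. The BP10 ratio of -0.25 was above 0 with each array's median, and the BP40 ratio stayed below 0.

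The rest of the apoptosis pathway was taken from 5 lists of 75 genes, of which 73 were on the array, with the probe above background on most arrays and then the brightest standing for each gene. For BP10 against control 4 were called higher and 5 lower of 70 tested, 12.9%, where 22.4% of all genes were called, 3.26% as higher and 19.1% as lower. For BP40 against control 1 was higher and 2 lower of 69, 4.35%, beside 19.7% of all genes, 3.18% higher and 16.5% lower. For BP40 against BP10 1 was higher and 1 lower of 69, 2.90%, beside 7.22% of all genes, 3.95% higher and 3.28% lower. Most calls over all probes came from dim probes, and the share among genes of like brightness was not computed for the lists. These shares therefore do not show whether the pathway changed less than other genes. Of the genes called for BP10, Vdac2 and Bnip3 lay in brightness class 20 and the others in classes 3 to 12. With each array's median as the scale the split was 6 higher and 4 lower for BP10 and 7 higher and 1 lower for BP40 against control.

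Of 14 other BCL2 relatives on the array, 12 were tested at each comparison. Bnip3, a mitochondrial BH3-like protein of mitophagy and a well-known hypoxia target, was the largest change between the doses on the lists. Its representative probe read 5.06 on the control, 3.44 on BP10 and 5.97 on BP40. BP10 was the low array, and the log2 ratio was -1.62 at BP10 and 0.91 at BP40, both against the control, and 2.53 between the doses. Its other 2 probes had -1.97 and -1.46 for BP10 against control and 2.51 and 1.96 between the doses. Its paralogue Bnip3l had 4 probes, none of them called, with ratios from 0.52 to 0.91 between the doses.

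**Figure D3:**
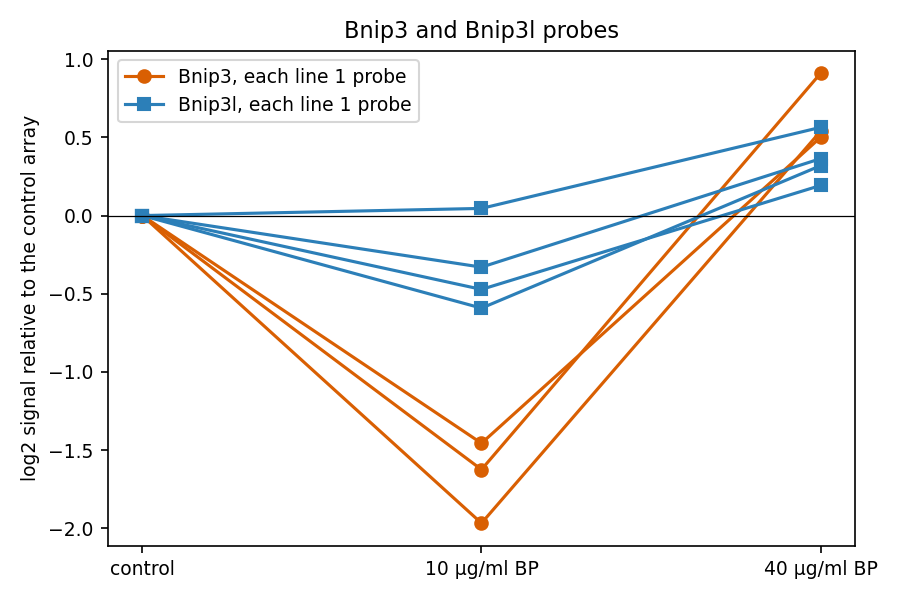
Log2 signal of each Bnip3 and Bnip3l probe relative to its value on the control array, for the control, 10 µg/ml BP and 40 µg/ml BP arrays; each line is 1 probe. The 3 Bnip3 lines lie between -1.97 and -1.46 at BP10 and between 0.50 and 0.91 at BP40, and the 4 Bnip3l lines between -0.59 and 0.05 and between 0.19 and 0.56.

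Bcl2a1c, of the A1 genes, read -5.07 on the control, -3.06 on BP10 and -4.77 on BP40, a log2 ratio of 2.01 at BP10 against control and -1.71 between the doses. These genes are near-identical copies whose probes may share signal, so its value is uncertain. The probe of another copy, Bcl2a1d, was brighter and not called, at -1.63 on the control, -1.85 on BP10 and -1.65 on BP40. Bcl2a1c was dim on every array, and with normexp, whose offset shrinks ratios of dim probes, its ratio between the doses was -0.88. Bmf and Bik, BH3-only relatives, were called lower for BP10 against control, Bmf at -1.39 and Bik at -1.46. The Bik probe was not above background on BP10. The Bcl2l14 call, 1.04, came from 1 of its 2 probes, and the other was above background on the control and not on BP10.

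In the mitochondrial arm, which holds cytochrome c, the apoptosome and the channels of the outer membrane, 1 of 16 genes was called at each dose. Over all genes 22.4% (BP10) and 19.7% (BP40) were called, and over probes of brightness classes 13 to 20 6.06% and 4.76%. The count is not read as a trait of the arm. Vdac2, the channel known to bind Bak1 and restrain it, read 4.17 on the control, 5.30 on BP10 and 6.06 on BP40. The level was higher at each dose step, with log2 ratios of 1.12 and 1.89 against the control and 0.77 between the doses, on 1 probe. The BP10 ratio was 0.79 with normexp, under 2-fold, and that of BP40 was between 1.67 and 2.24 in the alternatives run. Cycs and Apaf1, cytochrome c and the scaffold it assembles, were among the 15 not called at either dose.

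Of the 9 inhibitor of apoptosis (IAP) genes, Birc7 was called lower at both doses. It read -1.94 on the control, -2.99 on BP10 and -3.04 on BP40, with log2 ratios of -1.04 and -1.10. Both were under 2-fold with each array's median, quantile normalization, normexp and the class median removed, the BP40 ratio being -0.75 to -0.84 with 3 of these and -0.65 with normexp. Naip1 was at least 2.47-fold higher on BP10 than on the control by its representative probe, while its second probe was above background on the control alone. In the death receptor arm 1 of 13 genes tested was called against the control at each dose, beside 22.4% (BP10) and 19.7% (BP40) of all genes. It was Fasl, which was above background on the control alone, at a level too near the limit to give a fold.

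Among the regulators, 0 of 20 genes were called in any comparison on their representative probe, though other probes of Trp63, Mapk8 and Foxo3 were. Over all genes 22.4% (BP10) and 19.7% (BP40) were called against the control and 7.22% between the doses. For probes of brightness classes 13 to 20 the shares were 6.06%, 4.76% and 2.45%, so 0 of 20 is not read as a trait of the regulators. Trp53, which encodes p53, read 0.73 on the control, 0.68 on BP10 and 0.30 on BP40. Mdm2, a p53 target and its ubiquitin ligase, read 5.03 on the control, 5.17 on BP10 and 5.76 on BP40, with a log2 ratio of 0.73 for BP40 against control, which passed 2-fold at 1.08 with each array's median. Cdkn1a, the p53 target that encodes p21, read 4.55 on the control, 4.38 on BP10 and 4.90 on BP40 by its brightest probe. Its other 2 probes were highest on BP10, at 0.82 and 0.57 against control, so the 3 probes did not order the arrays in one way.

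**Figure D4:**
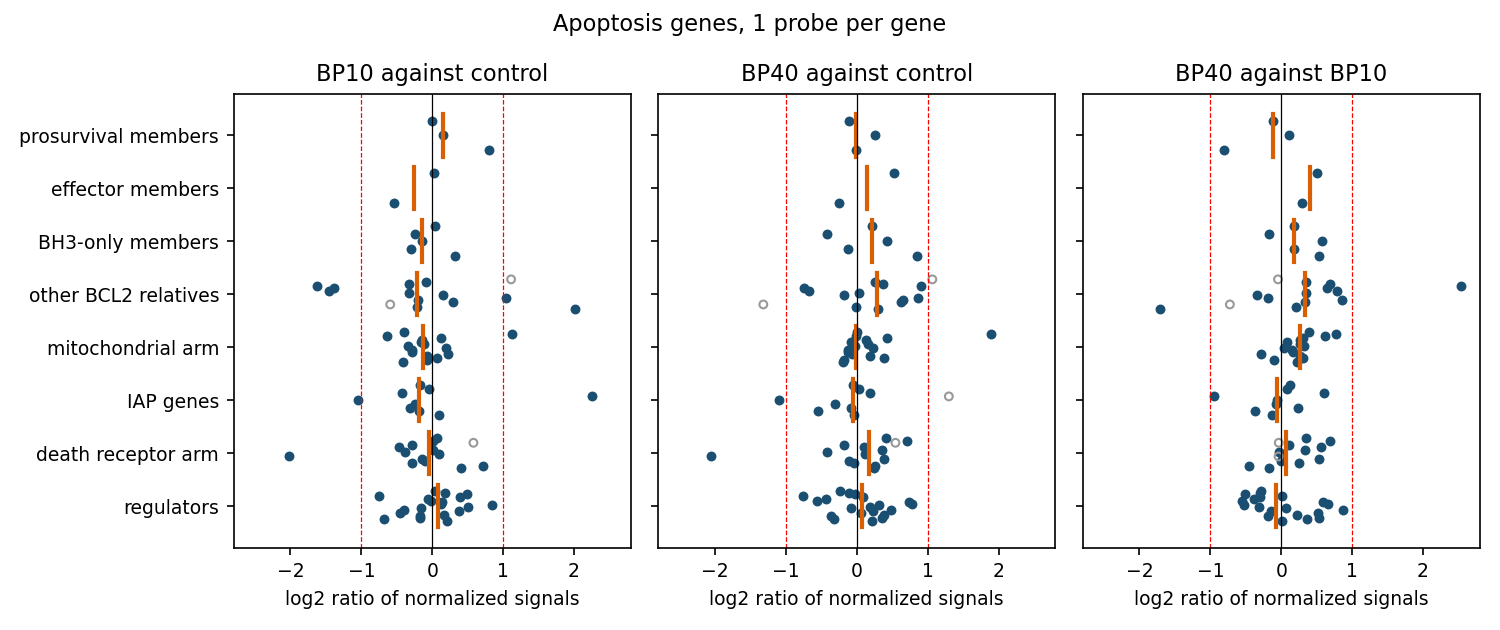
Log2 ratio of the representative probe of each apoptosis gene in the 3 comparisons, by list, with the median of each list as an orange bar and 2-fold as dashed red lines. Open grey circles were not well above background on either array. The points outside 2-fold for BP40 against BP10 are Bnip3 at 2.53 and Bcl2a1c at -1.71, both among the other BCL2 relatives.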

How the data were processed

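The authors hybridized Cy3-labelled RNA to 1-colour Agilent arrays and deposited the scanner output of Feature Extraction 10.5.1.1, an intensity per spot corrected for background on its own array, with no scaling across arrays, with flags for spots above background, saturated or outlying. The deposited series table held the same intensity for 100% of spots (relative tolerance 0.0001). Of the spots, 0 were saturated. From these, log2 of the processed intensity was taken, outlier and control spots were left out, the 75th percentile was subtracted and spots of a probe were averaged. RefSeq accessions named 26425 probes, 13 of the 14 member probes among them. The dimmer Bcl2l11 probe was named by the file. Calls needed a 2-fold difference and no test was run. Calling was checked on simulated data with known changes far above the threshold and the same noise at every brightness. That check does not bear on calls near 2-fold or on dim probes. The position of the Pmaip1 probe is not reported here. The members and lists were chosen with earlier results of these data known. Every member probe is described. Of the other lists, genes called the same way at both doses or between the doses, and Trp53, Mdm2 and Cdkn1a, were named by rule, and the other called genes were named after their values were seen. Alternatives were each array's median, the percentile over probes above background on all arrays, quantile normalization, normexp (offset 50), removal of the class median, folds of 1.5 and 3, other filters, the series table and 1 probe per gene. Tools were Python 3.11.15, numpy 2.4.6, pandas 2.3.3, R 4.3.3 and limma 3.58.1.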

Additional observations from a re-analysis of the deposited data

How the results depend on the processing

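No paired analysis was possible because there was a single array without BP and one at each dose. Values without replicates were held against the median SD between 2 probes of a gene. No ratio past 2-fold of a member, or of Vdac2, Birc7, Bnip3 or Bcl2a1c on the representative probe, changed sign. Ratios of the other called pathway genes and of second probes were not recomputed singly. Among recomputed ratios under 2-fold, the BP10 ratios against control of Trp53, -0.05, and Cdkn1a, -0.17, became 0.28 and 0.16 with each array's median. That of Mdm2, 0.14, became -0.15 with normexp. For BP10 against control, 2 member probes were called with each array's median, quantile normalization, removal of the class median or a 1.5-fold threshold, and 0 with normexp, 3-fold or 1 probe per gene, where 1 was called as reported. For BP40 against control there were 2 with each array's median or 1.5-fold and 0 with normexp, 3-fold or 1 probe per gene, again beside 1. For BP40 against BP10 the 0 became 2 at 1.5-fold. The member median became 0.36 for BP10 and 0.59 for BP40 against control with each array's median. Of 252 single member ratios recomputed, 40 moved by more than that SD, 28 of them with each array's median. The 42 with the series table could not move, since its intensities were the same. Another 42, with the percentile over probes above background, were shifted by a constant smaller than that SD, so they could not either. Pathway genes called for BP10 against control were 3 with normexp, 14 at 1.5-fold and 4 at 3-fold, beside 9. For BP40 against control they were 8 with each array's median, 1 with normexp, 13 at 1.5-fold and 6 without the filter on dim probes, beside 3. For BP40 against BP10 they were 1 with normexp and 14 at 1.5-fold, beside 2. Over all probes, calls that were higher made up 14.9% (BP10) and 15.4% (BP40) of those against the control, and 36.6% and 39.4% with each array's median. The cause was not tested. The number of arrays limits the precision of every value. For named pathway genes the alternatives were chosen after seeing the data.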

Other observations

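Beside the p53 axis, the 20 regulators covered FOXO and stress factors, kinases and the ubiquitin ligases of Mcl1, and several of them were read differently by probes of 1 gene. The brighter probe of Foxo3, an activator of Bcl2l11 and Bbc3, read -2.21 on the control, -2.60 on BP10 and -1.73 on BP40. Its dimmer probe read -5.03 on the control, -1.96 on BP10 and -3.97 on BP40, past 2-fold in all 3 comparisons and of the other sign at BP10 and between the doses. Mapk8, the kinase JNK1, had a representative log2 ratio of 0.84 for BP10 against control, another probe at -0.79 and one that was at least 2.25-fold lower. Mapk9, the kinase JNK2, had 0.79 and 0.69 on its 2 probes for BP40 against control, with the same sign at BP10. Atf4, a factor of the integrated stress response, had -0.68 at BP10 and -0.32 at BP40 against the control on its brighter probe, and 0.25 and 0.05 on the dimmer. The ligase Huwe1 and the deubiquitinase Usp9x, which set the turnover of the Mcl1 protein and had 1 probe each, had ratios of -0.15 and 0.49 for BP10 against control.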
